A study of Mus musculus with 18 samples.

Results

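Expression of 8 genes that make, move, break down or sense monoamines was described in mouse kidney after chronic social defeat stress (CSDS) and after CSDS with fluoxetine (FLX). The genes were listed by name, with earlier results of these data known: Tph1 and Ddc for synthesis, Slc6a4 and Slc29a4 for uptake, Maoa and Maob for breakdown, and Htr1b and Htr3a as serotonin receptors. They are 8 of 32675 genes in the deposited table. Male wild-type C57BL/6 mice of 6 weeks of age gave 3 groups of 6. Ctrl mice were handled daily and never defeated, StressPbs mice met an aggressor for 10 min on each of 14 days with daily injections of phosphate-buffered saline, and StressFlx mice went through the same defeats with daily intraperitoneal FLX at 10 mg per kg. No group received FLX without defeat, and injections without defeat are described for no group, so that defeat and injection cannot be told apart in the comparisons with Ctrl. Wounds from the fights were a stated limit of the model. The right kidney of each mouse was sequenced whole, as poly(A) RNA. In such bulk samples, fewer cells of a type and less RNA per cell cannot be told apart.

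Monoamines such as serotonin and dopamine are made from aromatic amino acids by a hydroxylase, such as Tph1, followed by the decarboxylase Ddc. Proximal tubule cells of the kidney are known to take up L-DOPA and to decarboxylate it to dopamine, which acts locally on salt excretion. Slc6a4, the high-affinity serotonin transporter that FLX blocks, and Slc29a4, a low-affinity transporter, clear monoamines from outside the cell. Maoa and Maob, the mitochondrial monoamine oxidases, break them down inside it.

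One StressPbs mouse, replicate 6, stood apart from the others and was left out of the values given first. The authors removed 1 unnamed mouse of this group for its inflammatory expression, and replicate 6 is taken to be that mouse. Its summed FPKM (fragments per kilobase of transcript, scaled to sequencing depth) over 6 neutrophil markers was 59.2, against 6.57 to 25.5 in the other 5 StressPbs mice. Over 4 markers of injured tubules it was 65.0, against 2.75 to 7.49. Fits with it are given beside the comparisons of StressPbs mice. Total estimated counts were 73000203 to 78650116 in Ctrl mice, 72149987 to 78711121 in StressPbs mice and 48928823 to 79061296 in StressFlx mice, where replicates 3 to 6 held at most 52073640. In Ctrl mice the 7 proximal tubule markers summed to 1136 to 1451 FPKM, 5 distal tubule and collecting duct markers to 999.7 to 1384, 5 podocyte markers to 39.7 to 54.0 and 5 endothelial markers to 23.2 to 34.5. The podocyte sum was 52.0 to 62.2 in the 5 StressPbs and 46.8 to 76.5 in StressFlx mice, and the endothelial sum 19.9 to 40.2 and 30.7 to 45.1. StressPbs replicate 6 had 773.6 FPKM for proximal tubule, 1439 for distal tubule and collecting duct, 90.5 for podocyte and 51.2 for endothelial markers. In the 17 mice, sums over markers of cells that could themselves carry monoamine genes were at most 4.43 FPKM for platelets, 4.49 for mast cells, 6.40 for sympathetic neurons and chromaffin cells and 2.45 for adrenal cortex. Of these 4 sums, that of platelets was higher in StressPbs replicate 6, at 4.85 FPKM.

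Of the 8 genes, 6 were measurable throughout, in that they passed a filter on low counts and had a count in all 18 mice. These were Ddc, Slc6a4, Maoa, Maob, Htr1b and Htr3a. Slc29a4 passed the filter with a count in 15 of 18 mice. Tph1 did not pass, with a count in 9 of 18 mice. Over the 17 mice, Ddc was by far the most abundant of the 8, at 15.3 ± 3.09 FPKM (SD, n = 17), a level per length of transcript. Maob at 2.42 ± 1.58 FPKM and Maoa at 2.24 ± 0.291 FPKM (SD, n = 17) came next and differed from each other by less than the spread of Maob. Slc6a4 followed at 0.994 ± 0.251 FPKM, and Htr3a at 0.326 ± 0.140 FPKM and Htr1b at 0.309 ± 0.221 FPKM (SD, n = 17) did not differ beyond their spread. Slc29a4, at 0.0528 ± 0.0391 FPKM, and Tph1, at 0.0096 ± 0.016 FPKM (SD, n = 17), lay near the limit of detection. Thus 3 of the 8 genes reached a mean of 1 FPKM.

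**Figure D1:**
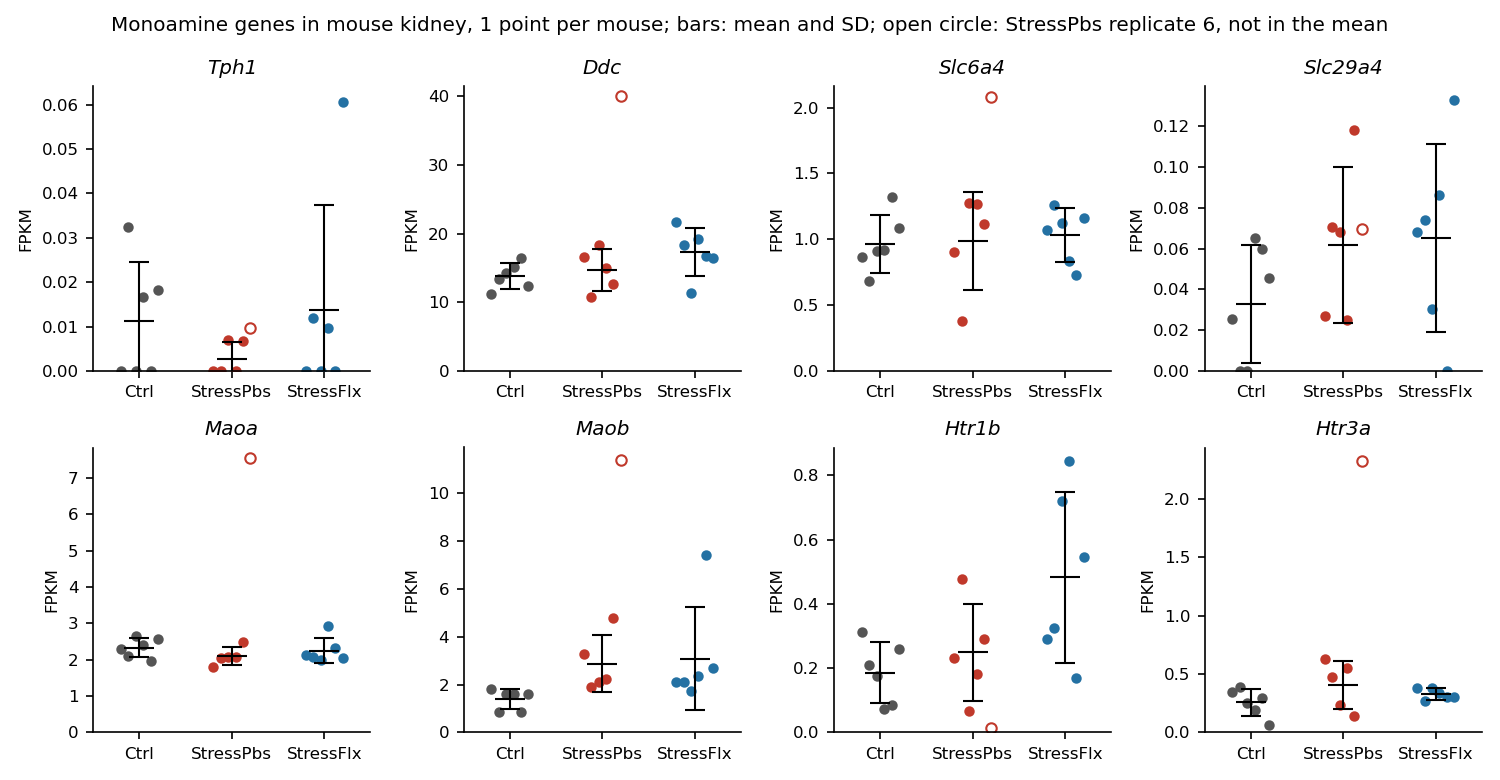
FPKM of the 8 genes (vertical axes, linear from 0, 1 scale per gene) in each mouse of the Ctrl, StressPbs and StressFlx groups. Points are mice, black bars are the mean and SD, and the open circle is StressPbs replicate 6, which is not in the mean; it is the highest of all 18 mice for Ddc, Slc6a4, Maoa, Maob and Htr3a.

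With edgeR's quasi-likelihood test, 0 of the 7 genes tested passed an adjusted p of 0.05 in any of the 3 comparisons. Across all 20251 genes tested, 3.81% passed in StressPbs versus Ctrl, 0.726% in StressFlx versus StressPbs and 3.67% in StressFlx versus Ctrl, so that less than 1 call among 7 genes would match the background. At an unadjusted p under 0.05 the numbers of the 7 genes were 1, 0 and 2, where 17.9%, 11.1% and 20.4% of all genes passed. DESeq2 called 1, 0 and 2 of them at its adjusted p, where it called 7.03%, 2.46% and 8.12% of all genes. Limma on log2(FPKM + 0.1) called 0 of them in each comparison, beside 3.80%, 1.26% and 5.99% of all genes. The median log2 fold change of the 7 genes was 0.43, 0.01 and 0.27 in the same order, beside -0.01, 0.00 and -0.01 over all genes tested. With all 6 StressPbs mice, 1 gene passed, Maob in StressPbs versus Ctrl, where 4.28% of 19946 genes did (2 genes at an unadjusted p under 0.05, beside 19.8%). The background with 6 mice was 0.557% in StressFlx versus StressPbs and 1.77% in StressFlx versus Ctrl, with 0 of the 7 genes called in either. At an unadjusted p under 0.05, 1 and 2 of the 7 passed, beside 12.2% and 17.7% of all genes.

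**Figure D2:**
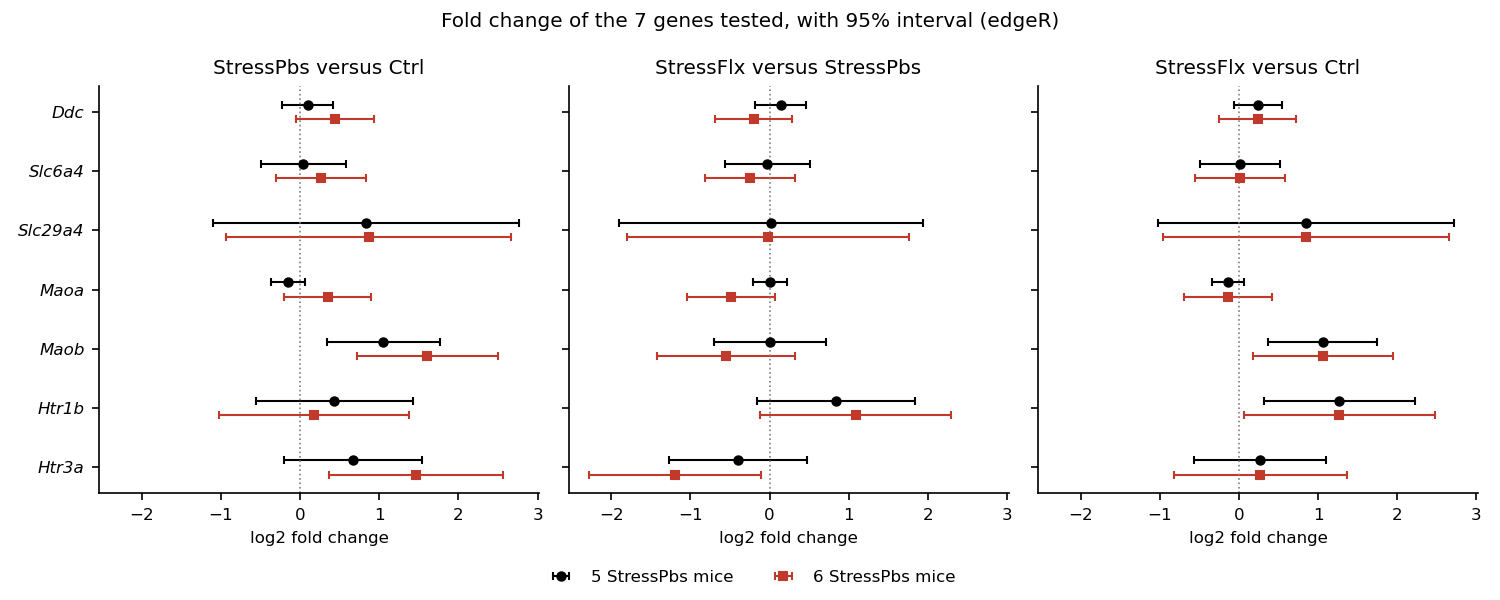
Log2 fold change (horizontal axis) with its 95% interval from edgeR for the 7 genes tested, in the 3 comparisons. Black circles are fits with 5 StressPbs mice and red squares with 6; the interval of Maob lies above 0 in both comparisons with Ctrl and spans 0 in StressFlx versus StressPbs.

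Synthesis was represented by Ddc, which did not pass the test in any comparison, and by Tph1, which was barely detected. Ddc (ENSMUSG00000020182, GRCm38 chromosome 11, 11814101 to 11898144, minus strand) encodes aromatic L-amino acid decarboxylase, the enzyme of the last step to both serotonin and dopamine. In Ctrl mice Ddc was 11.3 at the lowest, 13.8 at the median and 16.4 FPKM at the highest. The 5 StressPbs mice had 16.6, 10.8, 18.3, 15.0 and 12.7 FPKM, and StressFlx mice ranged from 11.4 through a median of 17.5 to 21.7 FPKM. The 3 groups overlapped, although 5 of 6 StressFlx mice lay above every Ctrl mouse. StressFlx replicate 6 did so at 16.41 FPKM, against 16.39 in the highest Ctrl mouse. The log2 fold change of Ddc was 0.09 (SE 0.15, adjusted p = 0.807, edgeR) in StressPbs versus Ctrl, 0.14 (SE 0.15, adjusted p = 0.818) in StressFlx versus StressPbs and 0.24 (SE 0.15, adjusted p = 0.377) in StressFlx versus Ctrl. On log2(FPKM + 0.1), the exact two-sided permutation test over mice gave p = 0.0736 for StressFlx versus Ctrl, unadjusted over the 8 genes tested in this way. StressPbs replicate 6 had 40.0 FPKM of Ddc, above the other 17 mice, and with it the first log2 fold change was 0.44 (adjusted p = 0.313, edgeR) and the second -0.20 (adjusted p = 0.805).

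Tph1 (ENSMUSG00000040046, chromosome 7, 46644641 to 46672537, minus strand) encodes the tryptophan hydroxylase of tissues outside the brain, which commits tryptophan to serotonin. It was listed at 0 in 3 of 6 Ctrl mice, in 3 of the 5 StressPbs mice and in 3 of 6 StressFlx mice. Its highest value was 0.0607 FPKM, in StressFlx replicate 6, from 23 estimated counts. The exact permutation p was between 0.242 and 0.935 over the 3 comparisons, so that no difference in Tph1 was detectable at this depth. With StressPbs replicate 6, at 0.00965 FPKM, it was 0.273 against Ctrl and 0.435 for StressFlx versus StressPbs.

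The fluoxetine target Slc6a4 was present at about 1 FPKM in each group and did not pass the test in any comparison. The gene (ENSMUSG00000020838, chromosome 11, 76998603 to 77032340, plus strand) had 0.679 to 1.32 FPKM in Ctrl mice, with a median of 0.916. In the 5 StressPbs mice it was 0.903, 0.382, 1.28, 1.27 and 1.11 FPKM, and in StressFlx mice 0.725 to 1.26 FPKM with a median of 1.10. The ranges of the 3 groups lay on top of each other, and StressPbs replicate 2 was the lowest of the 17 mice. Mean Slc6a4 was 0.964 ± 0.217 FPKM in Ctrl (SD, n = 6), 0.988 ± 0.371 in StressPbs (SD, n = 5) and 1.03 ± 0.205 in StressFlx mice (SD, n = 6). StressFlx versus StressPbs gave a log2 fold change of -0.03 (SE 0.25, adjusted p = 0.988, edgeR), with a 95% interval of -0.56 to 0.51. In StressPbs versus Ctrl it was 0.04 (95% interval -0.49 to 0.57, adjusted p = 0.957), and in StressFlx versus Ctrl 0.01 (-0.49 to 0.52, adjusted p = 0.984). These intervals leave room for changes of about 0.5 on the log2 scale in either direction, and the sign of each fold change turned under other settings. StressPbs replicate 6 had 2.08 FPKM of Slc6a4, and with it StressPbs versus Ctrl gave 0.27 (adjusted p = 0.636) and StressFlx versus StressPbs -0.25 (adjusted p = 0.786).

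Slc29a4 (ENSMUSG00000050822, chromosome 5, 142692512 to 142722490, plus strand), the plasma membrane monoamine transporter, was at most 0.133 FPKM in any mouse. It was listed at 0 in 2 Ctrl mice and 1 StressFlx mouse, and its largest estimated count was 29. Group means were 0.0328 ± 0.0289 FPKM in Ctrl (SD, n = 6), 0.0618 ± 0.0383 in StressPbs (SD, n = 5) and 0.0654 ± 0.0461 in StressFlx mice (SD, n = 6). With SEs of 0.89 to 0.92 on the log2 scale, the fold changes of 0.83, 0.02 and 0.85 could not be told from 0 (adjusted p = 0.703, 0.998 and 0.636, edgeR). With 6 StressPbs mice they were 0.87, -0.02 and 0.85 (adjusted p = 0.625, 0.997 and 0.651).

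The breakdown enzymes Maoa and Maob lie next to each other on chromosome X, on opposite strands and without overlap. Mean Maob was 2.06 times the Ctrl mean in StressPbs and 2.22 times in StressFlx mice, differences with a low exact p over mice that did not pass the adjusted p over all genes. Mean Maoa was 0.897 and 0.965 times the Ctrl mean. Maob (ENSMUSG00000040147, chromosome X, 16709282 to 16817366, minus strand) encodes monoamine oxidase B, which prefers phenylethylamine and also oxidises dopamine. The 6 Ctrl mice had 0.851 to 1.80 FPKM of Maob, with a median of 1.60. The 5 StressPbs mice had 3.28, 1.92, 2.11, 2.22 and 4.77 FPKM, and StressFlx mice had 1.72 to 7.42 FPKM with a median of 2.25. All 5 StressPbs mice thus lay above every Ctrl mouse, an arrangement without overlap that 3.52% of the 20251 genes showed in either direction. Among StressFlx mice, 5 of 6 lay above every Ctrl mouse, while 3.40% of genes did not overlap at all in that comparison. StressFlx and StressPbs mice overlapped in Maob (2.92% of genes did not).

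The means of Maob were 1.39 ± 0.416 FPKM in Ctrl (SD, n = 6), 2.86 ± 1.19 in StressPbs (SD, n = 5) and 3.07 ± 2.15 in StressFlx mice (SD, n = 6). On log2(FPKM + 0.1), the exact two-sided permutation p was 0.00433 for StressPbs versus Ctrl, the smallest that 5 against 6 mice can give, and 0.00433 for StressFlx versus Ctrl, both unadjusted over 8 genes. The edgeR fit over all genes gave a log2 fold change of 1.05 (SE 0.34, 95% interval 0.34 to 1.77, adjusted p = 0.0969) in StressPbs versus Ctrl, which did not pass. In StressFlx versus Ctrl it was 1.06 (SE 0.33, 95% interval 0.37 to 1.75, adjusted p = 0.0786), which did not pass either. The log2 fold change of StressFlx versus StressPbs was 0.01 (SE 0.34, 95% interval -0.71 to 0.72, adjusted p = 0.998), and -0.55 with 6 StressPbs mice (adjusted p = 0.666).

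The call for Maob turned on which mice and which tool were used. StressPbs replicate 6 had 11.4 FPKM, the highest of all 18 mice, and its inclusion gave a log2 fold change against Ctrl of 1.61 (SE 0.43, adjusted p = 0.0376, edgeR), the ratio of means was 3.09, and 6 of 6 StressPbs mice lay above every Ctrl mouse (2.71% of genes did not overlap with 6 mice). With DESeq2 and 5 mice the adjusted p was 0.0224 against Ctrl for StressPbs and 0.0129 for StressFlx. Leaving out 1 mouse at a time, the edgeR adjusted p in StressPbs versus Ctrl was between 0.0168, without StressFlx replicate 5, and 0.227, without StressPbs replicate 5. In StressFlx versus Ctrl it was between 0.0481, without Ctrl replicate 3, and 0.207, without StressFlx replicate 5. Without StressFlx replicate 5, the log2 fold change of the latter was 0.60. With StressFlx replicates 1 and 2 only it was 0.58 (adjusted p = 0.626, edgeR). With the shallower replicates 3 to 6 only it was 1.25 (adjusted p = 0.102), and the part of depth was not tested.

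Of the 17 mice, the 2 with the most Maob were also the 2 with the highest levels of brown fat markers. The same 2 mice also had the highest mast cell marker sums, at 4.49 FPKM in StressFlx replicate 5 and 2.94 in StressPbs replicate 5. StressFlx replicate 5 had the highest platelet, podocyte and endothelial sums of the 17 as well, at 4.43, 76.55 and 45.15 FPKM. The part of any of these cell types in Maob was not tested. The sum over 5 markers listed for brown fat (Ucp1, Cidea, Elovl3, Adipoq and Fabp4) was 10.8 to 100.7 FPKM in Ctrl mice, 19.9 to 795.9 in the 5 StressPbs mice and 19.0 to 517.7 in StressFlx mice, and each of the 5 markers was detected in every group. Adipoq and Fabp4 are not specific to brown fat, so this sum does not tell brown from white fat. The sum was highest in StressPbs replicate 5, at 795.9 FPKM, and in StressFlx replicate 5, at 517.7 FPKM, which had 4.77 and 7.42 FPKM of Maob. StressPbs replicate 6, by contrast, had 11.4 FPKM of Maob at a brown fat sum of 34.5. The median log2 fold change of the 5 markers was 2.78 in StressPbs versus Ctrl. There 1 of 5 passed the test, Elovl3 (5.98, adjusted p = 0.0208, edgeR), beside 3.81% of all genes. In StressFlx versus Ctrl the median was 2.14 and 0 of 5 passed, beside 3.67% of all genes. StressPbs mice other than replicate 5 had sums of 19.9 to 122.8 FPKM, which overlapped those of Ctrl mice. Both replicates 5 were also left out together, an alternative chosen after seeing the data. The edgeR log2 fold change in StressPbs versus Ctrl then fell from 1.05 to 0.82 and its adjusted p from 0.0969 to 0.0434 (ratio of means 1.72). The 2 mice left out had the most Maob of the 17, so this fit is no independent test of the difference. All 5 StressPbs mice already lay above every Ctrl mouse. That the 4 remaining did so, with the smallest possible exact permutation p (0.00952), was therefore fixed in advance. Of the StressFlx mice, 4 of 5 then lay above every Ctrl mouse (ratio 1.59) and the log2 fold change was 0.60 (adjusted p = 0.139).

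**Figure D3:**
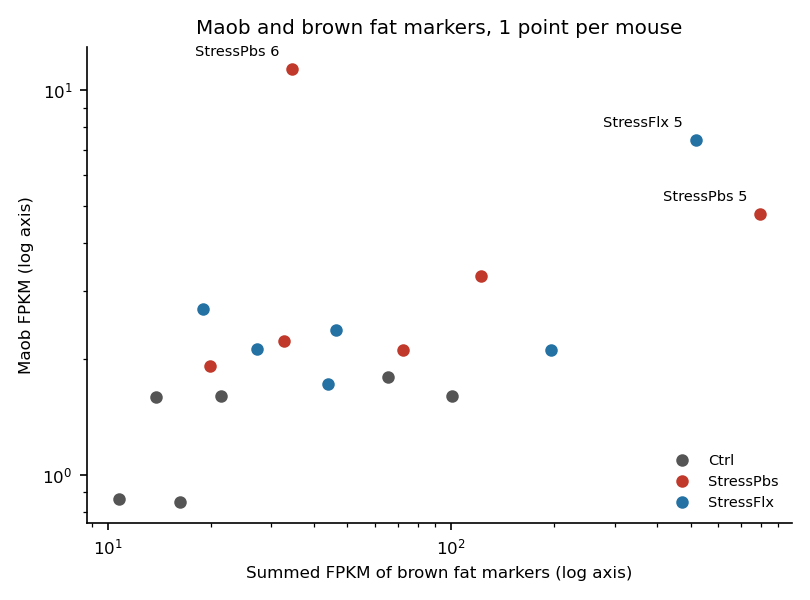
Maob FPKM (vertical log axis) against the summed FPKM of 5 brown fat markers (horizontal log axis), 1 point per mouse of the 3 groups. StressPbs 5 and StressFlx 5 are high on both axes, while StressPbs 6 has the most Maob at a brown fat sum of 34.5 FPKM.

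Over the 17 mice, the 3 genes with a pattern most like that of Maob, among 12115 genes of at least 1 FPKM, were Adipor2 (Pearson r = 0.939, Spearman rho = 0.922), Ywhag (0.927 and 0.877) and Trf (0.927 and 0.789), on log2(FPKM + 0.1). Adipor2 is an adiponectin receptor and Trf encodes transferrin. Without the 2 mice farthest from the median of Maob, StressFlx replicate 5 and Ctrl replicate 2, r was 0.907, 0.881 and 0.874. The 17 points share 1 library per mouse, and the genes were picked as the highest of many, so these values are a description.

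Maoa (ENSMUSG00000025037, chromosome X, 16619698 to 16687818, plus strand) encodes monoamine oxidase A, which prefers serotonin and noradrenaline. It varied little among the 17 mice. The Ctrl mice had 1.96 to 2.66 FPKM of Maoa with a median of 2.36, the 5 StressPbs mice had 1.80, 2.05, 2.07, 2.08 and 2.48, and StressFlx mice had 2.00 to 2.92 with a median of 2.11. All 3 ranges overlapped. The log2 fold change was -0.15 (SE 0.10, 95% interval -0.36 to 0.07, adjusted p = 0.490, edgeR) in StressPbs versus Ctrl, 0.01 (SE 0.10, adjusted p = 0.990) in StressFlx versus StressPbs and -0.14 (SE 0.10, adjusted p = 0.445) in StressFlx versus Ctrl. StressPbs replicate 6, at 7.55 FPKM, had more than 2 times the Maoa of any other mouse, and with it the first of these turned to 0.35 (adjusted p = 0.499) and the second to -0.49 (adjusted p = 0.490). The genes most like Maoa over the 17 mice were Rabl3 (r = 0.853, rho = 0.841), Agrn (0.848 and 0.733) and Dennd4b (0.821 and 0.860). Among those most like Ddc were Sptlc1 (r = 0.832, rho = 0.875) and Srsf3-ps (0.830 and 0.858).

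Both serotonin receptor genes were low, and mean Htr1b in StressFlx mice was 2.59 times the Ctrl mean, without passing the adjusted p of edgeR. Htr1b (ENSMUSG00000049511, chromosome 9, 81628291 to 81633828, minus strand) encodes an inhibitory receptor coupled to G proteins. Ctrl mice had 0.0720 to 0.314 FPKM of Htr1b with a median of 0.193, the 5 StressPbs mice had 0.231, 0.477, 0.0656, 0.182 and 0.290, and StressFlx mice had 0.169 to 0.845 with a median of 0.436. Of 6 StressFlx mice, 4 lay above every Ctrl mouse and 3 above every StressPbs mouse. These 3 were replicates 3, 4 and 6, at 0.719, 0.845 and 0.547 FPKM, which are among the 4 shallow StressFlx libraries, while the shallow replicate 5 was the lowest, at 0.169. The deeper StressFlx replicates 1 and 2 had 0.290 and 0.324, near the highest Ctrl mouse. Against Ctrl the log2 fold change was 0.68 with replicates 1 and 2 only (adjusted p = 0.765, edgeR) and 1.497 with 3 to 6 only (adjusted p = 0.147), and the part of depth was not tested. With all 6, the log2 fold change in StressFlx versus Ctrl was 1.27 (SE 0.46, 95% interval 0.31 to 2.23), and it did not pass (adjusted p = 0.126, edgeR), whereas DESeq2 gave an adjusted p of 0.0428. The exact permutation p was 0.0303, unadjusted over 8 genes. In StressFlx versus StressPbs the log2 fold change was 0.84 (SE 0.48, adjusted p = 0.564, edgeR; exact permutation p = 0.117), and in StressPbs versus Ctrl 0.43 (SE 0.47, adjusted p = 0.701). Estimated counts of Htr1b were 27 to 236 in the 17 mice, and StressPbs replicate 6 had 5. With it, StressFlx versus StressPbs was 1.09 (adjusted p = 0.472) and StressPbs versus Ctrl 0.18 (adjusted p = 0.902). The sum over markers of sympathetic neurons and chromaffin cells was 5.60 and 5.74 FPKM in StressFlx replicates 3 and 4 and 2.25 in replicate 6. In StressFlx replicate 5 this sum was 2.03 FPKM, and in StressPbs replicate 6 it was 0.787. Its median was 4.24 FPKM in Ctrl and 3.40 in StressFlx mice, and its part in Htr1b was not tested.

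Htr3a (ENSMUSG00000032269, chromosome 9, 48899213 to 48911099, minus strand) encodes a subunit of the serotonin-gated ion channel. Its values were 0.0609 to 0.392 FPKM in Ctrl mice (median 0.274) and 0.265 to 0.385 in StressFlx mice (median 0.323). The 5 StressPbs mice had 0.626, 0.471, 0.239, 0.550 and 0.139 FPKM, and 3 of them lay above every Ctrl mouse. The log2 fold change of StressPbs versus Ctrl was 0.67 (SE 0.41, adjusted p = 0.430, edgeR). StressPbs replicate 6 had 2.33 FPKM of Htr3a, which brought this difference to 1.47 (SE 0.52, adjusted p = 0.121). In StressFlx versus StressPbs it was -0.40 with 5 mice (adjusted p = 0.809) and -1.20 with 6 (adjusted p = 0.352), and in StressFlx versus Ctrl 0.27 (adjusted p = 0.755). Ddc, Slc6a4, Htr1b and Htr3a each overlap an annotated antisense gene. The authors describe a strand-specific preparation, in which the second strand carried uracil and was treated with the enzyme UDG. No source used here says whether counting used the strand, so the values of these genes may hold reads of the opposite strand.

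Around these 8 genes, 53 genes of the same steps were listed, and 48 of them were in the table. In synthesis, Pcbd1, which recycles the cofactor tetrahydrobiopterin, had the highest level at 267.9 FPKM, whereas the hydroxylases Th and Tph2 and the enzymes Dbh and Pnmt had means under 0.01 FPKM. In uptake and storage, the vesicular transporter Slc18a1 was at 25.1 FPKM, against 0.0066 for the noradrenaline transporter Slc6a2 and 0.004 for the dopamine transporter Slc6a3. Slc18a1 was not the highest of this role, as Slc47a1 was at 127.8 FPKM and Slc22a2 at 93.2. Aldh2, an aldehyde dehydrogenase, led breakdown at 114.5 FPKM, and Haao, an enzyme of the kynurenine route that competes for tryptophan, led tryptophan breakdown at 54.5 FPKM. The highest of the other serotonin receptors, Htr2b, was at 0.119 FPKM and the highest dopamine receptor, Drd1, at 0.0253. Of the 48 genes 27 were measurable in the same sense as above, and none of these 27 was a serotonin or dopamine receptor.

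**Figure D4:**
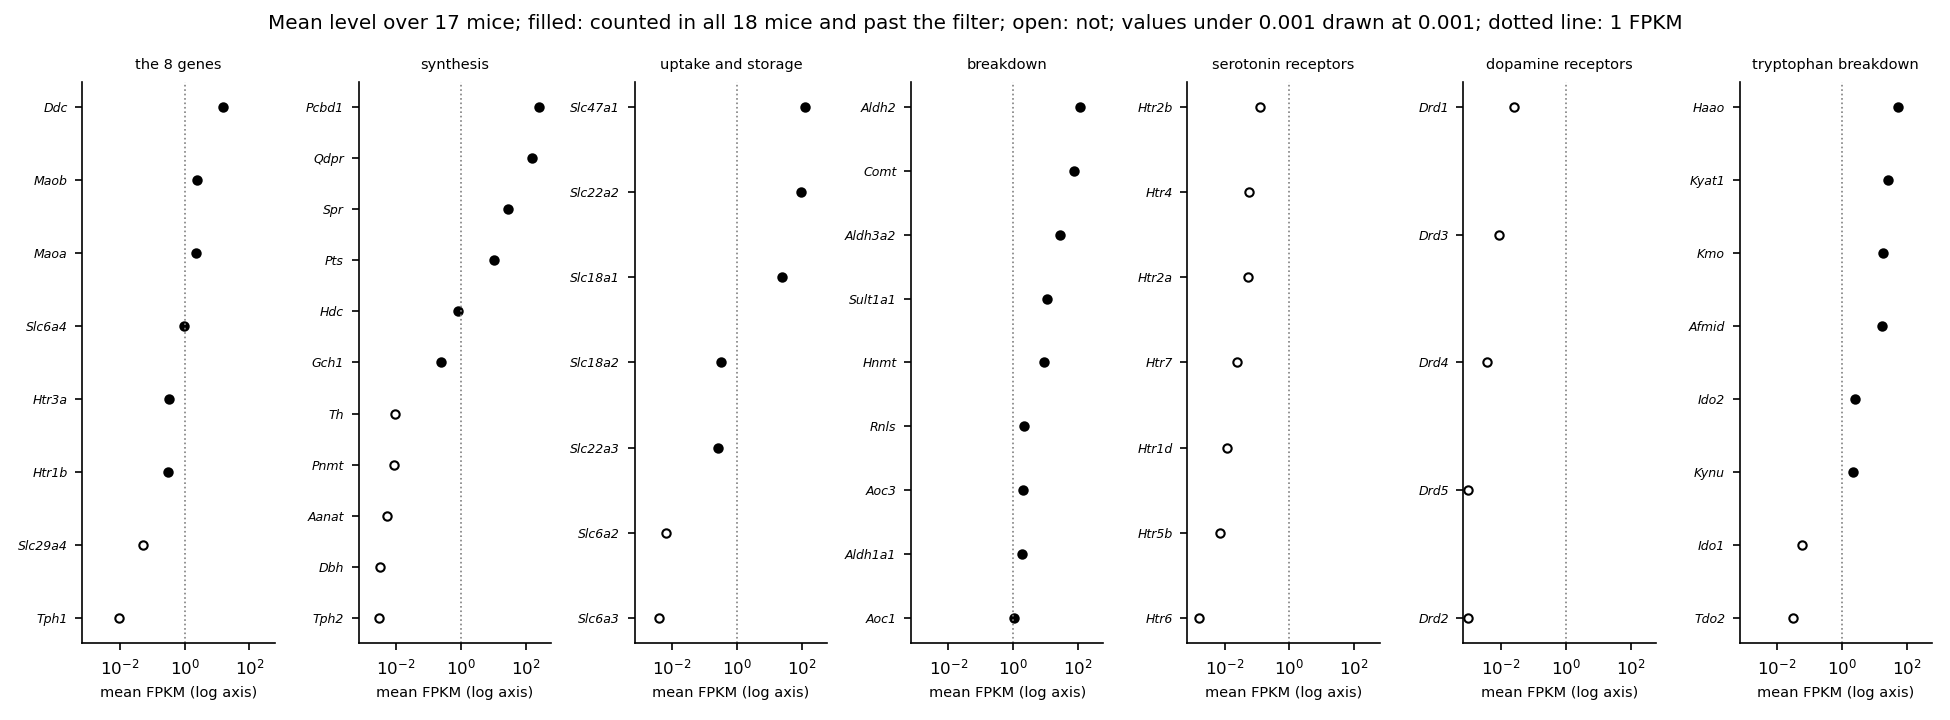
Mean FPKM over 17 mice (horizontal log axis) of the 8 genes and of the related genes in the table except 1, by role. Filled points are genes past the filter with a count in all 18 mice and open points are the rest; the dotted line marks 1 FPKM, below which all serotonin and dopamine receptors lie.

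In StressPbs versus Ctrl, 4 of 34 related genes tested passed (11.8%, beside 3.81% of all genes), 3 higher and 1 lower. The list was drawn up with earlier results of these data known, so that share is no independent support. Kynu, kynureninase, was 1.28 ± 0.381 FPKM in Ctrl mice (SD, n = 6) and 3.50 ± 1.23 in StressPbs mice (SD, n = 5). In Kynu, 5 of 5 StressPbs mice lay above every Ctrl mouse (log2 fold change 1.46, SE 0.26, adjusted p = 0.00354, edgeR). Kmo, kynurenine 3-monooxygenase, was 20.9 ± 1.43 FPKM in Ctrl and 14.02 ± 1.31 in StressPbs mice. In Kmo, 5 of 5 lay below every Ctrl mouse (log2 fold change -0.57, SE 0.11, adjusted p = 0.00691). Such an arrangement without overlap was shown by 3.52% of all genes, in either direction. Both calls held under all 14 other settings and without any 1 of the 17 mice. With 6 StressPbs mice the log2 fold change was 1.47 for Kynu (adjusted p = 0.00286) and -0.53 for Kmo (adjusted p = 0.00807).

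Among breakdown enzymes, Aldh1a1, an aldehyde dehydrogenase that also acts on retinaldehyde, rose from a mean of 0.897 ± 0.327 in Ctrl to 2.21 ± 0.840 FPKM in StressPbs mice (log2 fold change 1.31, SE 0.31, adjusted p = 0.0233). Sult1a1, a sulfotransferase of phenols, rose from 7.92 ± 1.40 to 12.9 ± 3.24 FPKM (log2 fold change 0.70, SE 0.17, adjusted p = 0.0286). For each, 4 of 5 StressPbs mice lay above every Ctrl mouse. With StressPbs replicate 6 the log2 fold change was 2.23 for Aldh1a1 (adjusted p = 0.0173) and 0.99 for Sult1a1 (adjusted p = 0.0208). Both calls were lost without some of the mice and with limma without a filter on low values (adjusted p = 0.0681 and 0.0789), and that of Aldh1a1 also with limma on log2(FPKM + 1) (adjusted p = 0.0574). The edgeR adjusted p of Aldh1a1 was 0.0538 to 0.0756 without Ctrl replicate 2 or 5 or StressPbs replicate 1, 4 or 5, and that of Sult1a1 0.0515 to 0.075 without Ctrl replicate 1, 4 or 5 or StressPbs replicate 1, 3 or 5. The mice that were rich in fat markers were again among the highest for Sult1a1, with 17.4 FPKM in StressPbs replicate 5 and 17.5 in StressFlx replicate 5; without both, Sult1a1 kept an adjusted p of 0.0363 and Aldh1a1 had 0.0566. In the same 5 StressPbs mice the sum over 6 neutrophil markers was 6.57 to 25.5 FPKM, above 1.29 to 3.18 in Ctrl mice, and its part in these results was not tested. With 6 StressPbs mice, 6 of 33 genes passed (18.2%, beside 4.28% of all genes), the further ones being Afmid (log2 fold change -0.69, adjusted p = 0.0496) and Aldh3a2 (-0.39, adjusted p = 0.0341).

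In StressFlx versus StressPbs, 0 of 34 related genes passed with edgeR, 6 had an unadjusted p under 0.05, and DESeq2 and limma called 1 each, where 0.726%, 11.1%, 2.46% and 1.26% of all genes passed. Those were Kynu with DESeq2 and Kmo with limma. In edgeR, Kynu had a log2 fold change of -0.85 (SE 0.26, adjusted p = 0.155), and Kmo 0.35 (SE 0.11, adjusted p = 0.162). With limma on log2(FPKM + 0.1), Kmo had 0.43 (adjusted p = 0.039). FPKM, also used for the overlap of mice, lacked the scaling between mice that edgeR used. The median log2 fold change over all genes was 0.076 with this limma fit and -0.0027 with edgeR. All 6 StressFlx mice lay above the 5 StressPbs mice in Kmo (2.92% of genes did not overlap), but 4 of 6 did with StressPbs replicate 6, which had 16.6 FPKM. With it, the log2 fold change was -0.86 for Kynu (adjusted p = 0.114) and 0.32 for Kmo (adjusted p = 0.177). The neutrophil marker sum was 0.219 to 4.78 FPKM in StressFlx mice.

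Between StressFlx and Ctrl mice, 2 of 34 passed (5.88%, beside 3.67% of all genes). Aldh1a1 was higher, at 2.51 ± 1.17 FPKM (SD, n = 6), with 6 of 6 StressFlx mice above every Ctrl mouse (3.40% of genes did not overlap). Its log2 fold change was 1.38 (SE 0.30, adjusted p = 0.0183, edgeR), and 11 of 14 other settings kept the call. The call was lost with StressPbs replicate 6 in the same model (adjusted p = 0.149). It was also lost with StressFlx replicates 1 and 2 only (0.182) or 3 to 6 only (0.0671). Pts, a synthase on the way to tetrahydrobiopterin, fell from 11.8 ± 0.812 to 9.96 ± 0.593 FPKM (SD, n = 6 each), with 4 of 6 StressFlx mice below every Ctrl mouse (log2 fold change -0.33, SE 0.08, adjusted p = 0.0292). Of the 17 fits that leave out 1 mouse, 10 kept the call for Pts, and the adjusted p was 0.0553 to 0.076 without Ctrl replicate 1, 2, 5 or 6 or StressFlx replicate 4, 5 or 6. Of the 14 other settings 6 kept it. It was lost with limma in all 4 forms (adjusted p = 0.0645 to 0.0832), with StressFlx replicates 1 and 2 only (0.639) or 3 to 6 only (0.0515), without the fat-rich mice (0.0758) and with a replicate block (0.068). With edgeR, no receptor, transporter or kynurenine enzyme passed in this comparison. Limma on log2(FPKM + 0.1) called 2 genes as well (5.99% of all genes passed), Aldh1a1 and, in place of Pts, Ido1, an enzyme of the first step of the kynurenine route. Ido1 was 0.107 ± 0.0726 FPKM in Ctrl and 0.00727 ± 0.0117 in StressFlx mice (SD, n = 6 each), with at most 36 and 3 estimated counts and a count in 2 of 6 StressFlx mice (adjusted p = 0.0352 with limma and 0.0707 with edgeR).

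**Figure D5:**
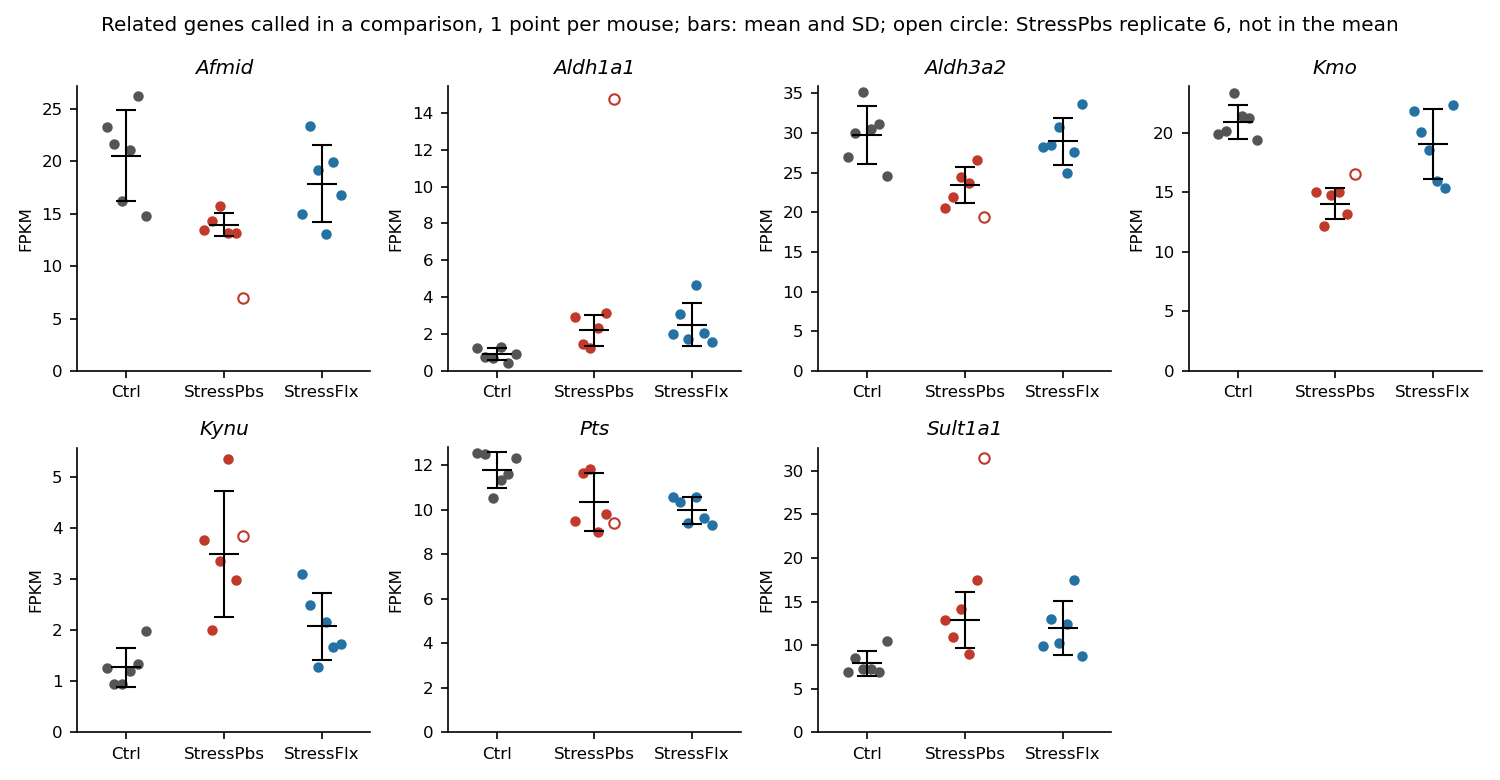
FPKM (vertical axes, linear from 0) of the 7 related genes that passed in at least 1 comparison with 5 or 6 StressPbs mice, in each mouse of the 3 groups. Points are mice, black bars are the mean and SD, and the open circle is StressPbs replicate 6, not in the mean. For Kynu and Kmo the StressPbs mice lie apart from the Ctrl mice, as 3.52% of all genes did with 5 StressPbs mice.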

How the data were processed

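Gene expression was measured by poly(A) RNA sequencing of 18 right kidneys. The authors used fastp for trimming, HISAT-3N for alignment to the GRCm38 genome and StringTie for transcript assembly; the submitters' processing notes also name cutadapt 1.9, HISAT2 2.0.4 and StringTie 1.3.4d. They deposited FPKM values and whole-number gene counts. These deposited counts are taken as estimated counts, because genes with 4 counts (median 720 per mouse) outnumber those with 3 (484.5) or 5 (268); no source used here names the counting tool. A count is therefore not read as 1 fragment.

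The 17 mice were fitted in 1 model over 3 groups with edgeR 4.0.16 (TMM scaling, filterByExpr with a minimum count of 10, quasi-likelihood test, Benjamini-Hochberg adjustment over all genes tested), called at an adjusted p under 0.05. Log2(FPKM + 0.1) of single genes was compared by exact permutation (scipy 1.17.1). DESeq2 1.42.0, limma 3.58.1, other scalings, pseudocounts of 0.01 and 1, no filter and leaving out mice were alternatives, and the fit was tested on simulated data. P-values measure the spread between mice. Members and lists were chosen with earlier results of these data known. Named were all 8 genes, the highest gene of each role, every related gene called in a comparison with 5 or 6 StressPbs mice, and the 3 genes most correlated with each member of at least 1 FPKM. Th, Tph2, Dbh, Pnmt, Slc18a1, Slc22a2, Slc47a1, Slc6a2, Slc6a3, Ido1 and the fat markers were named after their values were seen. Some genes that this rule names are not reported here. Marker lists for podocytes, distal tubule, platelets, mast cells, sympathetic neurons, adrenal cortex and endothelium were summed as well. Gene positions were those of the files, and 29644 of 32562 matched genes had the same start and end in GENCODE M21.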

Additional observations from a re-analysis of the deposited data

Results flagged for a closer look

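In 32 sets of mice (8 genes in each of 4 groupings), the highest and the lowest mouse were compared with the rest of their group by Dixon's ratio on log2(FPKM + 0.1), and chance picks out about 1 in 20 groups. In 3 sets 1 mouse stood apart. Maob was 7.42 FPKM in StressFlx replicate 5, against 1.72 to 2.69 in the other 5 StressFlx mice. Maoa was 7.55 FPKM in StressPbs replicate 6, against 1.80 to 2.48 in the other 5 StressPbs mice. Tph1 was 0.0607 FPKM in StressFlx replicate 6, against at most 0.0119 in the other StressFlx mice, a level that rests on 23 estimated counts.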

How the results depend on the processing

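The fits were repeated under 14 other settings and without each of the 17 mice in turn. Of the 8 genes, those called in StressPbs versus Ctrl went from 0 to 1 (Maob) with DESeq2, with all 6 StressPbs mice, with StressFlx replicates 1 and 2 only and with the 2 mice of the highest brown fat sum left out, the last chosen after seeing the data; leaving out 1 mouse gave 0 to 1. In StressFlx versus Ctrl it was 2 with DESeq2 and 0 to 1 without 1 mouse. Related genes called in StressPbs versus Ctrl went from 4 to 2 with limma without a filter, and were 2 to 6 without 1 mouse (2 without Ctrl replicate 5, StressPbs replicate 1 or StressPbs replicate 5). In StressFlx versus StressPbs they went from 0 to 1 with DESeq2 and with limma at each of 3 pseudocounts. In StressFlx versus Ctrl they went from 2 to 1 with limma at a pseudocount of 1, limma without a filter, all 6 StressPbs mice or the fat-rich mice left out, and to 0 with StressFlx replicates 1 and 2 only or 3 to 6 only; without 1 mouse they were 1 to 6 (6 without Ctrl replicate 3). The cause was not tested.

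Over all genes, 772 calls in StressPbs versus Ctrl became 1424 with DESeq2, 496 with only those 2 groups, and 388 to 1662 without 1 mouse. The 147 calls of StressFlx versus StressPbs became 498 with DESeq2, 88 without a filter, 255, 242 and 244 with limma at pseudocounts of 0.1, 1 and 0.01, 0 with StressFlx replicates 1 and 2 only, 38 with 3 to 6 only, 95 with those 2 groups, and 47 to 250 without 1 mouse. The 744 calls of StressFlx versus Ctrl became 1645 with DESeq2, 378 without a filter, 1214, 1197 and 1165 with limma, 354 with 6 StressPbs mice, 4 and 179 with the same StressFlx subsets, 350 without the fat-rich mice, and 271 to 3099 without 1 mouse (3099 without Ctrl replicate 3). Higher and lower calls in StressPbs versus Ctrl were 433 and 339, but 314 and 449 with upper-quartile scaling, and in StressFlx versus Ctrl 422 and 322, but 340 and 412. With limma on log2(FPKM + 0.1) the latter were 979 and 235, and in StressFlx versus StressPbs 192 and 63, against 62 and 85 with edgeR; limma at the other pseudocounts and without a filter gave 75.2% to 77.9% higher there and 80.0% to 82.5% in StressFlx versus Ctrl.

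Mice of the same number did not deviate together: their residuals correlated by -0.205 to 0.227 (median -0.0309, 16 pairs), against -0.214 to 0.165 in 80 other pairs. With the replicate number as a block, calls over all genes were 419, 67 and 258 in the 3 comparisons, and related genes in StressFlx versus Ctrl fell to 1. Under the block, Sult1a1 in StressPbs versus Ctrl (adjusted p = 0.0626, edgeR) and Pts in StressFlx versus Ctrl (adjusted p = 0.068) no longer passed the test. The block turned the sign of the StressFlx versus StressPbs log2 fold changes of Slc6a4 (0.0195), Slc29a4 (-0.28) and Maob (-0.060).

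Other turns of sign concerned log2 fold changes that passed no test. In StressPbs versus Ctrl, Slc6a4 was -0.0095 with upper-quartile scaling, -0.036 with limma with or without a filter, -0.052 at a pseudocount of 0.01 and -0.090 to 0.25 without 1 mouse, and Maoa was 0.35 with 6 StressPbs mice. In StressFlx versus Ctrl, Slc6a4 was -0.017 with upper-quartile scaling, -0.11 with StressFlx replicates 3 to 6 only and -0.062 to 0.14 without 1 mouse. In StressFlx versus StressPbs, with 6 StressPbs mice Ddc was -0.20, Slc29a4 -0.017, Maoa -0.49, Maob -0.55 and Aldh1a1 -0.85. With StressFlx replicates 3 to 6 only, Ddc was -0.0063 and Slc29a4 -0.11, and with 1 and 2 only, Slc6a4 was 0.19, Maoa -0.035 and Maob -0.48. With limma, Slc6a4 was 0.13 with or without a filter, 0.047 at a pseudocount of 1 and 0.15 at 0.01, Maob -0.0071 with or without a filter and -0.0092 at 0.01, and Slc29a4 -0.14 at 0.01; without a count filter Maob was -0.0022. Without the fat-rich mice, Slc6a4 was 0.10 and Maob -0.22. Without 1 mouse, Slc6a4 was -0.23 to 0.10, Slc29a4 -0.28 to 0.35, Maoa -0.055 to 0.061, Maob -0.46 to 0.25 and Aldh1a1 -0.16 to 0.21.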
